A study of Mus musculus with 110 samples.

Results

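The response of inguinal white adipose tissue (iWAT) to cold exposure (CE) was followed in mice that were already on a methionine-restricted diet (MetR). It rests on 13 of the 110 RNA-seq libraries of the series, 7 of MetR_RT and 6 of MetR_CE, which were taken from the iWAT columns by matching the library numbers to the sample titles. Ctrl_RT and Ctrl_CE, with 7 iWAT libraries each, gave the same cold step on the control diet, and all 27 iWAT libraries entered 1 fit. Mice of all groups were male wild-type C57BL/6N from Taconic, housed singly and 16 weeks old when they were killed in the morning. Both diets lacked cysteine. The labels give 0.12% methionine for MetR and 0.86% for the control diet. MetR_RT mice ate MetR for 7 days at 22 °C, and MetR_CE mice ate it for the same 7 days and then for the additional 24 h that they spent at 4 °C, so that cold and the longer time on the diet cannot be told apart. Each library came from a different mouse, and 1 MetR_CE library of iWAT was lost in preparation. Total counts ran from 16607493 to 31420731 in MetR_RT (median 21143818) and from 21326784 to 33141066 in MetR_CE (median 27782035).

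Inguinal fat of mice is a white depot in which beige adipocytes appear under cold. Sympathetic nerves release noradrenaline, beta-adrenergic receptors raise cAMP, and protein kinase A then acts on lipolysis and, through CREB and PGC-1α, on the genes of uncoupled respiration. Shortage of an essential amino acid is sensed separately, through the kinase GCN2 and the transcription factor ATF4, and this integrated stress response reaches some of the same genes, Fgf21 among them. The question addressed here is what cold adds in iWAT once restriction is in place.

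The tissue label was checked against the markers of 11 cell types. Markers are given as the summed level of a list in CPM, read counts scaled to library size with TMM factors. The 10 adipocyte markers summed to 24280 to 29910 CPM in MetR_RT and 28300 to 30590 CPM in MetR_CE, and none of them was at 0 in any library. Skeletal muscle markers summed to 96.3 to 21690 CPM in MetR_RT and 16.7 to 4912 CPM in MetR_CE, with the highest value in MetR_RT 6. B and T cell markers, which would mark the inguinal lymph node, stayed under 13 CPM in every library. MetR_RT 2 and MetR_RT 5 stood apart with the highest sums of macrophage markers (1525 and 1618 CPM) and fibroblast markers (4496 and 3638 CPM), and values without both are given beside the results.

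In MetR_CE against MetR_RT, 498 of 26428 genes tested (1.88%) were differentially expressed (DEGs), with an adjusted p under 0.05 and at least a 1.5-fold change. There were 159 upregulated (0.602%) and 339 downregulated DEGs (1.28%). With a group mean of at least 1 CPM in the higher group, 402 remained, 135 of them upregulated. The median absolute log2FC of the DEGs was 1.08, and 60 changed at least 4-fold. The libraries of the 2 groups did not overlap for 140 of the DEGs (67 upregulated and 73 downregulated), while 2.72% of all genes tested showed no overlap (1.88% with every MetR_CE library higher and 0.836% with every one lower). The count of DEGs fell to 224 without MetR_RT 2, 241 without MetR_RT 5, 178 without MetR_CE 4 and 310 without MetR_CE 6, to 109 upregulated and 148 downregulated without MetR_CE 5, and to 106 (54 upregulated and 52 downregulated) without MetR_RT 2 and 5 together. The downregulated DEGs alone also moved to 512 without MetR_RT 1, 214 without MetR_CE 1 and 195 without MetR_CE 3. The total was 484 without MetR_RT 6, the library highest in muscle markers. Of 56 DEGs selected by size or precision of the change, or as list members, 37 (23 upregulated and 14 downregulated) were called whichever of the 13 libraries was left out.

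Among genes of heat production, cold on top of MetR raised Dio2 and Ppargc1a, whereas Ucp1 missed the threshold. Dio2, the deiodinase that makes active thyroid hormone inside the cell, lay at 2.08 to 39.4 CPM (median 11.8) in MetR_RT and 85.1 to 230 CPM (median 123) in MetR_CE (log2FC 2.90 ± 0.51, adjusted p = 0.00172). Every MetR_CE library was above every MetR_RT library, a fitted change of 7.48-fold. Ppargc1a, which encodes the coactivator PGC-1α of mitochondrial biogenesis, lay at 11.8 to 33.8 CPM (median 25.8) in MetR_RT and 51.9 to 110 CPM (median 74.8) in MetR_CE (log2FC 1.72 ± 0.31, adjusted p = 0.00232), again with no overlap. Ucp1, the uncoupling protein of brown and beige mitochondria, lay at 210 to 3598 CPM (median 1145) in MetR_RT and 2173 to 5658 CPM (median 3770) in MetR_CE (log2FC 0.97 ± 0.68, adjusted p = 0.446). The MetR_RT median was under the lowest MetR_CE library, but the highest MetR_RT library reached into the MetR_CE range. On the control diet Ucp1 lay at 1.27 to 449 CPM (median 72.4) in Ctrl_RT and 530 to 4481 CPM (median 2554) in Ctrl_CE, a log2FC of 4.08. Gpr3, an orphan receptor that raises cAMP without a ligand, was low at 0.113 to 0.774 CPM (median 0.251) in MetR_RT and 0.605 to 1.95 CPM (median 1.08) in MetR_CE (log2FC 1.80 ± 0.41, adjusted p = 0.011), with an overlap of the groups. Dio2 and Ppargc1a kept their calls without MetR_RT 2 and 5, whereas Gpr3 missed the threshold (log2FC 1.71, adjusted p = 0.061) and Ucp1 had a log2FC of 0.60.

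Over the lists, Dio2 was the 1 upregulated gene of 18 thermogenic effectors, and Ppargc1a and Gpr3 were the 2 upregulated of 16 thermogenic regulators, with 0 downregulated in both. The shares over all genes tested were 0.602% upregulated and 1.28% downregulated. The effectors had a median log2FC of 0.66 and the regulators of 0.27, beside -0.05 over all genes. These medians were 0.37, 0.18 and -0.03 without MetR_RT 2 and 5, and Ppargc1a was the 1 regulator called. For cold on the control diet the same medians were 2.17 and 0.98, with 17 effectors and 9 regulators upregulated (5.99% of all genes tested were upregulated there). These are changes and not levels, and Ucp1 started higher in MetR_RT than in Ctrl_RT, as given above. The difference between the diets passed the test for 0 of the 18 effectors and 1 of the 16 regulators, and not for Ucp1. The list of UCP1-independent heat production (12 genes, median -0.15) gave 0 DEGs in MetR.

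**Figure D1:**
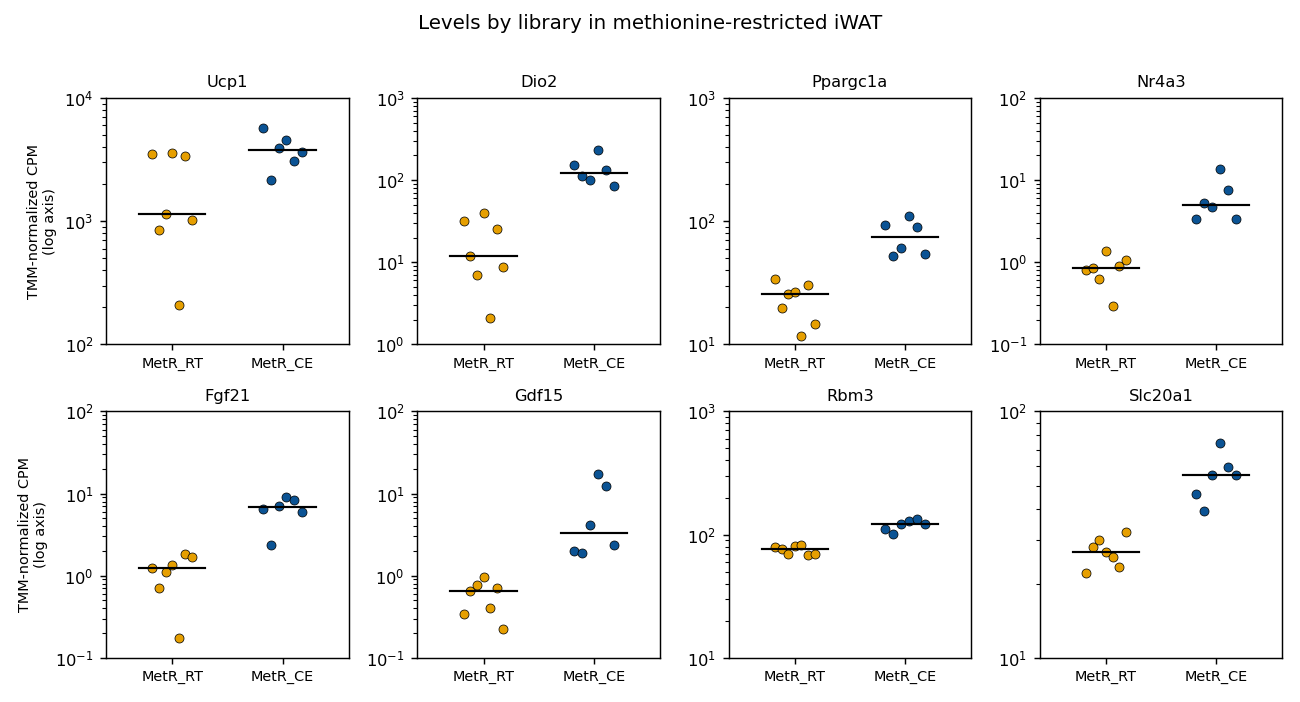
TMM-normalized CPM (log axis) of 8 genes in the 7 MetR_RT and 6 MetR_CE libraries. Points are libraries and black bars group medians. Dio2, Ppargc1a, Nr4a3, Fgf21, Gdf15, Rbm3 and Slc20a1 show no overlap between the groups, and Ucp1 overlaps.

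Genes of beta-adrenergic and cAMP signalling moved in both directions, with 3 of 24 upregulated and 3 downregulated, beside 0.602% and 1.28% of all genes tested. Nr4a3, an orphan nuclear receptor induced within hours of a cAMP signal, lay at 0.289 to 1.35 CPM (median 0.843) in MetR_RT and 3.35 to 13.5 CPM (median 5) in MetR_CE (log2FC 2.90 ± 0.38, adjusted p = 8.55e-05). All MetR_CE libraries exceeded the highest MetR_RT library. Its relative Nr4a2 lay at 5.38 to 11.8 CPM (median 8.37) in MetR_RT and 12.1 to 18.7 CPM (median 15.2) in MetR_CE (log2FC 0.83 ± 0.17, adjusted p = 0.00598), also without overlap. Adcy3, an adenylyl cyclase that makes cAMP, lay at 34.7 to 175 CPM (median 71.9) in MetR_RT and at a median of 199 CPM, with a lowest value of 170.5 CPM, in MetR_CE (log2FC 1.12 ± 0.33, adjusted p = 0.0421). The highest MetR_RT library reached just into the MetR_CE range. Its call was lost in 9 of 13 leave-outs and without MetR_RT 2 and 5 (adjusted p = 0.199).

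The 3 downregulated genes were a receptor and 2 immediate early genes. Adrb3, the beta-adrenergic receptor most typical of rodent adipocytes, had a median of 410.2 CPM and a highest value of 558 CPM in MetR_RT, and lay at 180 to 303 CPM (median 265.2) in MetR_CE (log2FC -0.78 ± 0.21, adjusted p = 0.0274). The groups overlapped, since the lowest MetR_RT library lay just under the MetR_CE median. All other MetR_RT libraries were above every MetR_CE library. Fos, a subunit of the AP-1 transcription factor, lay at 2.18 to 26.5 CPM (median 11.9) in MetR_RT and 1.62 to 5.79 CPM (median 2.31) in MetR_CE (log2FC -2.09 ± 0.54, adjusted p = 0.0228), and Egr1, a zinc finger factor, at 9.67 to 186 CPM (median 43.4) in MetR_RT and 9.17 to 25.1 CPM (median 15.1) in MetR_CE (log2FC -2.16 ± 0.59, adjusted p = 0.0317). Calls were lost in 3 of 13 leave-outs for Adrb3, 2 for Fos and 6 for Egr1, but all 3 genes passed when MetR_RT 2 and 5 were both left out.

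The upstream sequences of Dio2, Ppargc1a and Nr4a3 are shown because these 3 genes rose together and are textbook targets of cAMP. RefSeq's GRCm38.p6 table gave the 250 bases before each gene start, 5′ to 3′ in the direction of transcription, and capitals mark the cAMP response element TGACGTCA or its half-site TGACG on either strand. The Dio2 window lies at chr12:90739039-90739288 (minus strand), that of Ppargc1a at chr5:51567726-51567975 (minus strand) and that of Nr4a3 at chr4:48045055-48045304 (plus strand).
Dio2: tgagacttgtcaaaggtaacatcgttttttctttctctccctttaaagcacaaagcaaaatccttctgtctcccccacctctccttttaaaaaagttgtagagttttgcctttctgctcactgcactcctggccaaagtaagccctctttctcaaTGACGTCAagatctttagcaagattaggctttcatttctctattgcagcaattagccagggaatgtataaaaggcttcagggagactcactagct
Ppargc1a: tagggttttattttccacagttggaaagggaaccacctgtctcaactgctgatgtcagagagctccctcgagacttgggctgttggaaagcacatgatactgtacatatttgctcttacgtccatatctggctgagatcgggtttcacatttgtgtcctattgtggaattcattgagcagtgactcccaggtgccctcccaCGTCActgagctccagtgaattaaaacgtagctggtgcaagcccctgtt
Nr4a3: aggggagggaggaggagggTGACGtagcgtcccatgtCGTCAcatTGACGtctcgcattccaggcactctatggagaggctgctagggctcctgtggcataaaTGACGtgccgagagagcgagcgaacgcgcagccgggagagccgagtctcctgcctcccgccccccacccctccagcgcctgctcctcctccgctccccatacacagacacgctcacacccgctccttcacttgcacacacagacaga

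Dio2 held the whole element 95 bases before the start, Ppargc1a 1 half-site and Nr4a3 4 half-sites. Searched on both strands in windows of 300 bases, which include the first 50 of the transcript, the whole element was in 1.79% of the 32851 windows of all genes, 2.50% of those of the genes tested, 1.44% of the 139 windows of upregulated and 0.735% of those of downregulated DEGs. The half-site, which the whole element contains, was in 20.8% of all windows, 26.5% of those of the genes tested, 30.9% of those of upregulated and 14.3% of those of downregulated DEGs. These matches are letters in a window and were not tested as binding sites.

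Among genes of the integrated stress response, 7 of 26 were upregulated and 1 downregulated (0.602% and 1.28% of all genes tested), with a list median of 0.57. On the control diet the median was 0.34, with 5 upregulated and 4 downregulated (5.99% and 9.94% of all genes tested). The difference between the diets passed the test for 4 of the 26, all positive (0.511% of all genes tested). Fgf21, which encodes a circulating hormone of nutrient shortage, lay at 0.174 to 1.84 CPM (median 1.23) in MetR_RT and 2.39 to 9.11 CPM (median 6.77) in MetR_CE (log2FC 2.51 ± 0.35, adjusted p = 0.000195). The highest MetR_RT library was under the lowest MetR_CE library, and the fitted change was 5.68-fold. Gdf15, which encodes a stress hormone that lowers food intake, lay at 0.226 to 0.953 CPM (median 0.648) in MetR_RT and 1.87 to 17.5 CPM (median 3.28) in MetR_CE (log2FC 3.53 ± 0.62, adjusted p = 0.00174). Its groups did not overlap either. On the control diet Gdf15 lay at 0.834 to 9.29 CPM (median 1.55) in Ctrl_RT and 0.905 to 4.24 CPM (median 1.41) in Ctrl_CE with a log2FC of -0.29, and the difference between the diets passed the test (log2 3.82 ± 0.82, adjusted p = 0.0158). Fgf21 rose with cold on the control diet too (log2FC 2.84).

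The other 5 upregulated genes of this list changed less. Trib3, a pseudokinase that restrains AKT and ATF4, lay at 6.95 to 13.4 CPM (median 10.51) in MetR_RT and 12 to 34.8 CPM (median 19.9) in MetR_CE (log2FC 1.07 ± 0.23, adjusted p = 0.00732). Slc3a2, the heavy chain shared by several amino acid transporters, lay at 82.3 to 123 CPM (median 108) in MetR_RT and 147 to 231 CPM (median 166) in MetR_CE (log2FC 0.76 ± 0.16, adjusted p = 0.00537). Ddit3, which encodes the factor CHOP, lay at 14.6 to 17.9 CPM (median 16.6) in MetR_RT and 19.2 to 33.1 CPM (median 24.2) in MetR_CE (log2FC 0.60 ± 0.13, adjusted p = 0.00863). Slc3a2 and Ddit3 separated the groups completely and Trib3 overlapped at the edge. Stc2, a secreted glycoprotein (log2FC 1.03, adjusted p = 0.0366), and Sesn2, a leucine sensor (log2FC 0.90, adjusted p = 0.0366), completed the set. Pycr1, an enzyme of proline synthesis, was the 1 downregulated member (log2FC -0.99 ± 0.27, adjusted p = 0.032), and its call was lost in 6 of 13 leave-outs. Without MetR_RT 2 and 5, 4 genes of the list were upregulated (Fgf21, Gdf15, Slc3a2 and Ddit3) and 0 downregulated, and 4 were upregulated without MetR_CE 4. The NRF2 list gave 1 upregulated of 12, Srxn1, the sulfiredoxin that repairs peroxiredoxins (log2FC 0.66 ± 0.14, adjusted p = 0.0067), and the unfolded protein response list gave 0 DEGs of 18.

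The upstream sequence of Fgf21 is shown because the gene is a known target of ATF4. Capitals mark a C/EBP-ATF response element, searched as TGATGNAA and present here on the other strand, and the E-box CACGTG. The window lies at chr7:45615491-45615740 (minus strand) in GRCm38.p6.
Fgf21: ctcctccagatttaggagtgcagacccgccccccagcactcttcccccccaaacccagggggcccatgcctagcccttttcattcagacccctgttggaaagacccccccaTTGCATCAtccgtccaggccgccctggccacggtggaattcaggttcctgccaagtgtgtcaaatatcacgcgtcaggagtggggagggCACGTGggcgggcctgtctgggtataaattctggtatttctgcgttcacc

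The response element lay 139 bases and the E-box 50 bases before the start. Among the named genes the element was also in the windows of Pycr1, which fell, and Trib3, which rose. It lay 103 bases before the start in Pycr1 and 14 bases after it in Trib3. The windows of Gdf15 held 0 matches. Windows with TGATGNAA made up 3.97% of all windows, 2.62% of those of the genes tested, 3.60% of those of upregulated and 4.04% of those of downregulated DEGs.

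Clock genes formed the third group that moved, with 4 of 18 upregulated and 3 downregulated, beside 0.602% and 1.28% of all genes tested. Their median log2FC was 0.52, and 0.69 on the control diet. In the molecular clock, BMAL1 (Arntl) pairs with CLOCK or NPAS2 to switch on Per, Cry and the PAR bZIP genes through E-boxes, and the Per and Cry proteins shut this off. All mice were killed within the same morning hours. Per2 lay at 7.17 to 22 CPM (median 11.2) in MetR_RT and 21.5 to 50.7 CPM (median 32.6) in MetR_CE (log2FC 1.39 ± 0.27, adjusted p = 0.004), and Per1 at 28.7 to 74 CPM (median 34.4) in MetR_RT and 60.1 to 112 CPM (median 85.1) in MetR_CE (log2FC 1.11 ± 0.26, adjusted p = 0.0125). A small overlap remained for both. Ciart, a repressor of the BMAL1 complex, lay at 1.6 to 2.98 CPM (median 2.19) in MetR_RT and 3.84 to 6.29 CPM (median 4.52) in MetR_CE (log2FC 1.14 ± 0.26, adjusted p = 0.0105), and Hlf, a PAR bZIP factor under clock control, at 10.6 to 25.4 CPM (median 21) in MetR_RT and 28.9 to 47.2 CPM (median 32.6) in MetR_CE (log2FC 0.87 ± 0.20, adjusted p = 0.0128). For both, all MetR_CE libraries were above all MetR_RT libraries.

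Of the activating arm, Arntl and Npas2 fell. Arntl lay at 12 to 22 CPM (median 12.4) in MetR_RT and 6.09 to 8.54 CPM (median 6.95) in MetR_CE (log2FC -1.10 ± 0.20, adjusted p = 0.00264), and Npas2 at 2.4 to 7.73 CPM (median 3.96) in MetR_RT and 0.847 to 2.19 CPM (median 1.26) in MetR_CE (log2FC -1.68 ± 0.30, adjusted p = 0.00199). Neither gene showed an overlap. Clock, at 48.6 to 62.8 CPM in MetR_RT and 45.2 to 60.1 CPM in MetR_CE, was not called. Cry1 and Cry2 were not called either, and the groups overlapped for all 3 of these genes. Cold on the control diet changed 10 clock genes upward and 2 downward, beside 5.99% and 9.94% of all genes tested. The log2FC there was 1.45 for Per2, 0.56 for Per1, 0.84 for Ciart, -1.11 for Arntl and -2.53 for Npas2. Arntl, Npas2, Per1 and Per2 kept their calls without MetR_RT 2 and 5, and Ciart and Hlf missed the threshold there (log2FC 1.12 and 0.80, adjusted p = 0.0578 and 0.0663).

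**Figure D2:**
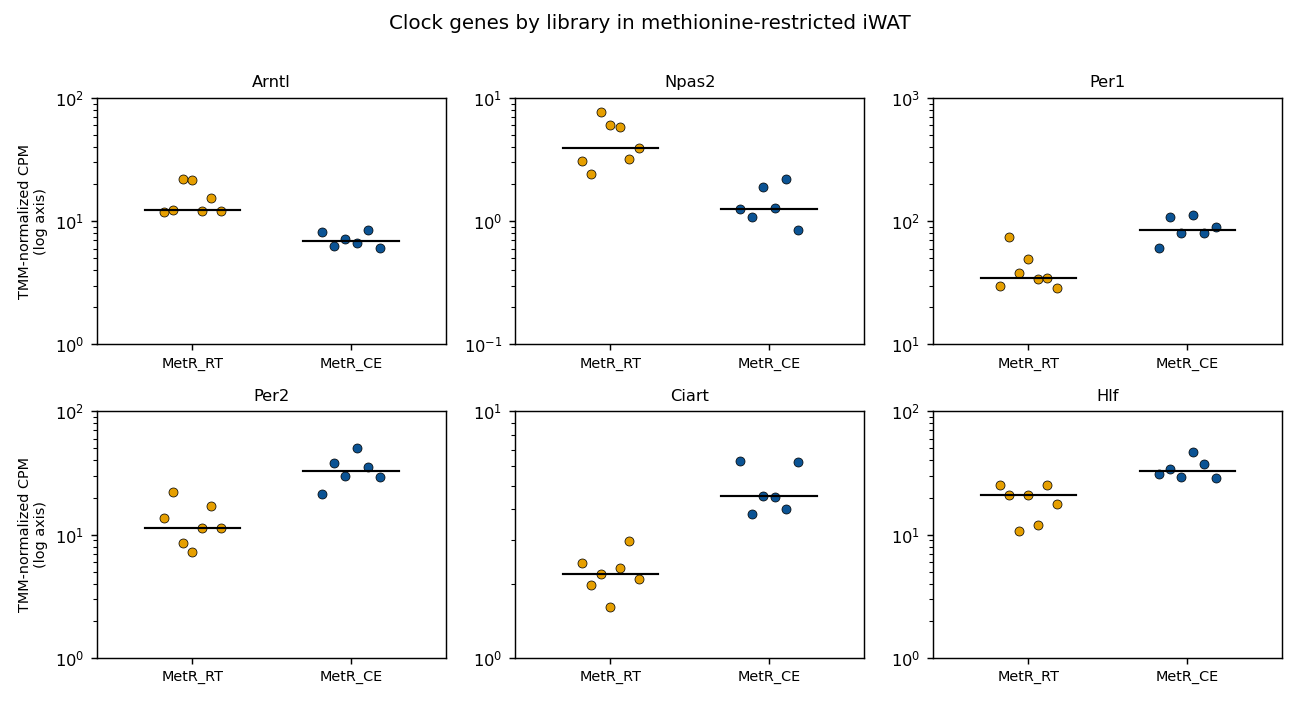
TMM-normalized CPM (log axis) of 6 clock genes that passed the test, in 7 MetR_RT and 6 MetR_CE libraries, with black bars at the group medians. Arntl and Npas2 are lower in every MetR_CE library, Ciart and Hlf are higher in every one, and Per1 and Per2 overlap.

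The upstream sequence of Ciart is shown for its 3 E-boxes CACGTG, in capitals, at chr3:95882229-95882478 (minus strand) in GRCm38.p6. E-boxes were found in 7.15% of all windows, 8.66% of those of the genes tested, 10.8% of those of upregulated and 6.62% of those of downregulated DEGs.
Ciart: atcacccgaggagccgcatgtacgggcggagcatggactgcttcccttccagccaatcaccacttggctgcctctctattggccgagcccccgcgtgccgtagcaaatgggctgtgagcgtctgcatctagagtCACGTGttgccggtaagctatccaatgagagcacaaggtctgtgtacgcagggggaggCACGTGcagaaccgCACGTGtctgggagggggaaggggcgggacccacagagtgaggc

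Several of the most precise increases belonged to none of these groups. Rbm3, an RNA-binding protein that is induced by mild cooling of cells, lay at 68.8 to 82.5 CPM (median 76) in MetR_RT and 102 to 133 CPM (median 123) in MetR_CE (log2FC 0.68 ± 0.10, adjusted p = 0.000195), and was the 1 DEG of 15 heat shock and cold-inducible genes. Tatdn2, a nuclease of the TatD family, lay at 40.2 to 64 CPM (median 51.8) in MetR_RT and 84.9 to 138 CPM (median 99.2) in MetR_CE (log2FC 1.05 ± 0.13, adjusted p = 8.55e-05). Slc20a1, a sodium-dependent phosphate transporter, lay at 22.1 to 32.4 CPM (median 26.8) in MetR_RT and 39.5 to 74.2 CPM (median 55.1) in MetR_CE (log2FC 1.03 ± 0.13, adjusted p = 8.55e-05). In all 3 the groups were apart.

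Coq10b, a coenzyme Q binding protein of mitochondria, lay at 18.8 to 30.2 CPM (median 23.7) in MetR_RT and 37.2 to 48.6 CPM (median 41.7) in MetR_CE (log2FC 0.82 ± 0.12, adjusted p = 0.000269). Slc5a6, the carrier of biotin and pantothenate (log2FC 0.91 ± 0.14, adjusted p = 0.000475), Sgms1, a sphingomyelin synthase (log2FC 0.68 ± 0.10, adjusted p = 0.000676), Plk3, a stress-responsive polo-like kinase (log2FC 1.40 ± 0.24, adjusted p = 0.00151), Myl4, a myosin light chain (log2FC 1.13 ± 0.20, adjusted p = 0.00197), and Hpdl, a mitochondrial relative of an enzyme of tyrosine breakdown (log2FC 1.40 ± 0.30, adjusted p = 0.00747), rose as well. All of these increases passed in each leave-out and without MetR_RT 2 and 5. Sgk2, a kinase related to AKT, had one of the largest changes. It lay at 0 to 1.75 CPM (median 0.536) in MetR_RT and 3.27 to 14 CPM (median 6.79) in MetR_CE (log2FC 3.40 ± 0.69, adjusted p = 0.00487), with no overlap. Mfsd2a, a transporter of lysophospholipids that is induced by cold and fasting in other tissues (log2FC 2.51 ± 0.69, adjusted p = 0.0325), lost its call in 4 leave-outs and without MetR_RT 2 and 5 (adjusted p = 0.0994).

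Metabolic programmes showed few DEGs with cold on top of MetR. Lipolysis and lipid droplets (15 genes tested, median 0.32), lipoprotein lipase and uptake (13, median 0.25), fatty acid oxidation and ketone bodies (24, median 0.19), the nuclear respiratory chain (20, median 0.15), the mitochondrial genome (13, median 0.18), glycolysis and the citrate cycle (23, median 0.17) and branched-chain amino acid breakdown (19, median -0.02) each gave 0 DEGs. In the lipolysis list, 4 genes had every MetR_CE library higher (1.88% of all genes tested). An adjusted p under 0.05 with less than a 1.5-fold change was found for 2 of its genes. These numbers were 1 and 1 for lipoprotein lipase and uptake. With MetR_RT 2 and 5 left out, the medians were 0.0012 for oxidation, 0.0020 for the nuclear respiratory chain, 0.056 for the mitochondrial genome, -0.0053 for glycolysis and the citrate cycle and -0.094 for branched-chain amino acid breakdown, whereas lipolysis and lipoprotein uptake stayed at 0.23 and 0.19. For cold on the control diet the medians of these 7 lists were 0.36, 0.50, 0.67, 0.84, 0.54, 1.05 and 0.34. There, 13 oxidation genes, 18 nuclear respiratory chain genes and 20 genes of glycolysis and the citrate cycle were upregulated, beside 5.99% of all genes tested. These medians are changes and not levels, and the 2 cold steps start from different groups. Acadl, for example, had a median of 427.1 CPM in Ctrl_RT, 696.6 CPM in Ctrl_CE and 735.5 CPM in MetR_RT. For Cs, the citrate synthase, these were 522.8, 1382 and 1398 CPM. Starting levels were not compared over whole lists. The adipokine (18 genes, median 0.27) and methionine cycle (19 genes, median 0.12) lists and angiogenesis (15 genes, median 0.19) gave 0 DEGs in MetR. Cell proliferation (24 genes, 19 of them with at least 1 CPM) gave 0 DEGs too, but 21 genes had a negative log2FC. Its median was -0.72, beside -0.05 over all genes, and -0.66 on the control diet. Without MetR_RT 2 and 5 it was -0.54, with 20 genes lower.

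The lists of lipogenesis and cholesterol synthesis had medians of opposite sign on the 2 diets. The 20 genes of de novo lipogenesis had a median log2FC of -0.26 in MetR and 0.99 on the control diet, with 1 and 16 upregulated. The 21 genes of cholesterol synthesis and uptake had -0.15 and 0.79, with 0 and 15 upregulated. Among all genes tested, 0.602% were upregulated in MetR and 5.99% on the control diet. The interaction was negative for 7 genes of each of these lists, beside 1.14% of all genes tested. It was also negative for 7 of the 23 genes of glycolysis and the citrate cycle, and positive for 1. The lipogenesis genes included Fasn, the fatty acid synthase (log2 -1.47, adjusted p = 0.034), and Acss2, which makes acetyl-CoA from acetate (log2 -2.15, adjusted p = 0.0441). Whether these 2 calls hold in leave-outs was not examined. Starting levels differed here too. Acly, for example, had a median of 3574 CPM in Ctrl_RT, 9749 CPM in Ctrl_CE and 7010 CPM in MetR_RT. In MetR the 1 upregulated lipogenic gene was Scd3, a stearoyl-CoA desaturase, at 1.07 to 2.76 CPM (median 1.75) in MetR_RT and 1.87 to 15.6 CPM (median 5.42) in MetR_CE (log2FC 1.81 ± 0.39, adjusted p = 0.00808), with an overlap. Reads of Scd3 may be shared with its close relatives Scd1 and Scd2, so its level is uncertain. Gpat4, which starts triglyceride synthesis, was the 1 upregulated of 15 genes of that pathway (log2FC 0.63 ± 0.16, adjusted p = 0.0184, list medians 0.15 in MetR and 0.66 on the control diet), and Fdft1, the squalene synthase, was the 1 downregulated cholesterol gene (log2FC -0.65 ± 0.19, adjusted p = 0.0403), with calls lost in 2 and 8 leave-outs, and both without MetR_RT 2 and 5 (adjusted p = 0.12 and 0.0828).

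**Figure D3:**
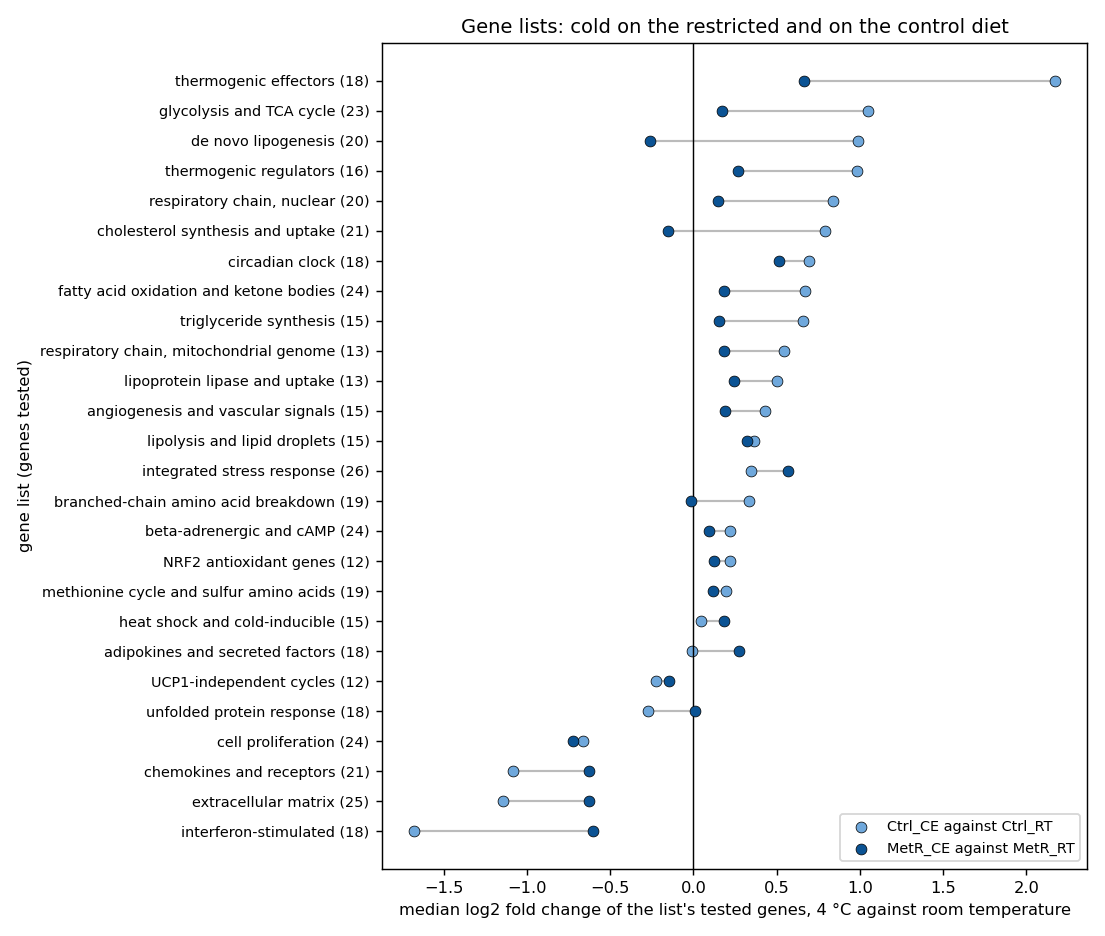
Median log2FC of the tested genes of 26 gene lists (vertical axis, number of genes in brackets) for MetR_CE against MetR_RT and for Ctrl_CE against Ctrl_RT (horizontal axis). The thermogenic effectors lie at 0.66 in MetR and 2.17 on the control diet, and the lipogenesis and cholesterol lists lie on opposite sides of 0.

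Among the DEGs decreases outnumbered increases, though not without MetR_RT 2 and 5 (54 upregulated and 52 downregulated) or by adjusted p alone (836 higher and 595 lower). Matrix genes were among the decreases. Of 25 extracellular matrix genes 5 were downregulated and 0 upregulated, with a median of -0.63 (-1.14 with 16 downregulated on the control diet). Downregulated shares of all genes tested were 1.28% in MetR and 9.94% on the control diet. Col1a1, the main chain of fibrillar collagen I, lay at 456 to 2185 CPM (median 645) in MetR_RT and 212 to 382 CPM (median 290) in MetR_CE (log2FC -1.70 ± 0.50, adjusted p = 0.0441). Fbn1, the fibrillin of microfibrils, lay at 65.8 to 335 CPM (median 115) in MetR_RT and 46.3 to 69.4 CPM (median 55) in MetR_CE (log2FC -1.64 ± 0.39, adjusted p = 0.014). Col1a1 separated the groups, and Fbn1 overlapped slightly, since its highest MetR_CE library reached just over the lowest MetR_RT library. Col3a1 (log2FC -1.41 ± 0.42, adjusted p = 0.0459), fibronectin (Fn1, log2FC -1.56 ± 0.44, adjusted p = 0.0368) and Col6a3 (log2FC -0.92, adjusted p = 0.0377) were the other 3. Calls of Col1a1, Col3a1 and Fn1 were lost in 9, 10 and 8 of 13 leave-outs, and the list held 1 or 2 DEGs without MetR_RT 2, 5 or 7 or MetR_CE 1, 3, 4, 5 or 6. Outside the list, the collagen Col6a6 (log2FC -2.11 ± 0.50, adjusted p = 0.0148), Srpx (log2FC -1.23 ± 0.29, adjusted p = 0.0144) and Igsf10 (log2FC -1.39 ± 0.34, adjusted p = 0.0181), and the imprinted noncoding RNA Rian (log2FC -1.39 ± 0.34, adjusted p = 0.0178), fell too, but none of the 4 was called without MetR_RT 2 and 5 (adjusted p = 0.154 to 0.18), and Col6a6, Igsf10 and Rian not without MetR_RT 2 alone. Without MetR_RT 2 and 5 the matrix list held 0 DEGs and a median of -0.22, and Col1a1 had a log2FC of -0.99 and Fbn1 of -1.06. In bulk tissue, fewer cells of a type and less RNA per cell cannot be told apart.

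Macrophage markers were lower in value in MetR_CE, and 3 of the 10 passed the test (1.28% of all genes tested were downregulated). The 10 macrophage markers summed to 382.4 to 1618 CPM (median 676.4) in MetR_RT and 308.7 to 729.9 CPM (median 392.4) in MetR_CE, a log2 difference of -0.93 (exact two-sided permutation test over 1716 splits, p = 0.0297, adjusted over 11 lists p = 0.0653). All 10 had a negative log2FC, and Adgre1 (F4/80, log2FC -1.23), Mrc1 (CD206, -1.21) and C1qa (a complement subunit, -1.27) were the 3 DEGs, whose calls were lost without MetR_RT 2 or 5 and without MetR_CE 1, 3, 4, 5 or 6. Without MetR_CE 2, 8 macrophage, 5 mast cell and 4 fibroblast markers were called. Fibroblast markers, a list that holds Col1a1, differed by -0.83 (adjusted p = 0.0653 in the same exact test). Without MetR_RT 2 and 5 the differences were -0.54 for macrophages and -0.44 for fibroblasts (both adjusted p = 0.175, exact test) with 0 DEGs in either list. T cell and mast cell markers differed by -0.73 and -0.99 (both adjusted p = 0.0353, exact test), with the mast cell proteases Mcpt4 and Cma1 as the DEGs (log2FC -1.67 and -1.68, neither called without MetR_RT 2 or 5 or MetR_CE 4, 5 or 6), and without the 2 libraries by -0.87 (adjusted p = 0.0476) and -0.75 (adjusted p = 0.0873). Only 3 of the 10 T cell markers had a mean of at least 1 CPM in the higher group, and 0 were DEGs. B cells, endothelium, muscle, epithelium, nerve and red blood cells did not pass in the full set (adjusted p = 0.0961 to 0.783), and adipocytes differed by 0.11 (adjusted p = 0.0653), or by 0.31 (adjusted p = 0.0417, exact test) when log2 values were averaged over the markers in place of summed levels. The part of cell numbers in the decreases was not tested.

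Among 21 chemokines and receptors, 3 were downregulated and 0 upregulated, beside 1.28% and 0.602% of all genes tested. The list median was -0.63, and -1.09 on the control diet. Ccl8, a monocyte-attracting chemokine of resident macrophages, lay at 2.61 to 71.8 CPM (median 9.52) in MetR_RT and 0.403 to 3.09 CPM (median 2.21) in MetR_CE (log2FC -3.36 ± 0.78, adjusted p = 0.0118). Its highest MetR_CE library was just over the lowest MetR_RT library. Ccr2, the receptor of recruited monocytes, fell less (log2FC -1.12 ± 0.32, adjusted p = 0.0413), with a call lost in 9 leave-outs. Without MetR_RT 2 and 5 no call of the list was left, with a list median of -0.30 and a log2FC of -1.77 for Ccl8.

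Genes of antigen presentation were lower as well. This list of 20 genes was put together after the values had been seen, so its counts describe these libraries only: 9 were downregulated, 0 upregulated, and all 20 had a negative log2FC (median -0.62). The downregulated share of all genes tested was 1.28%. Ciita, the master regulator of MHC class II genes, lay at 5.37 to 9.44 CPM (median 8.45) in MetR_RT and 2.94 to 5.19 CPM (median 3.44) in MetR_CE (log2FC -1.05 ± 0.20, adjusted p = 0.00389). H2-Ab1, a class II chain, lay at 81.2 to 149 CPM (median 115) in MetR_RT and 54.4 to 89.4 CPM (median 62.6) in MetR_CE (log2FC -0.86 ± 0.20, adjusted p = 0.0124), and Cd74, the invariant chain, at 151 to 317 CPM (median 225) in MetR_RT and 110 to 178 CPM (median 130) in MetR_CE (log2FC -0.79 ± 0.20, adjusted p = 0.0212). Ciita separated the groups, while H2-Ab1 and Cd74 overlapped slightly. Psmb9, a subunit of the immunoproteasome that cuts peptides for class I, lay at 23.7 to 34.1 CPM (median 28) in MetR_RT and 15.8 to 19.7 CPM (median 17.1) in MetR_CE (log2FC -0.70 ± 0.12, adjusted p = 0.00144), with no overlap. H2-Aa, H2-Eb1, H2-DMa, H2-DMb1 and H2-DMb2 were the other 5, and the last 2 are near-identical copies whose reads may be split. Without MetR_RT 2 and 5, Ciita and Psmb9 were the 2 genes still called, and the list's median was -0.49 with all 20 genes lower. Without MetR_CE 4 or 6, 5 were called.

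**Figure D4:**
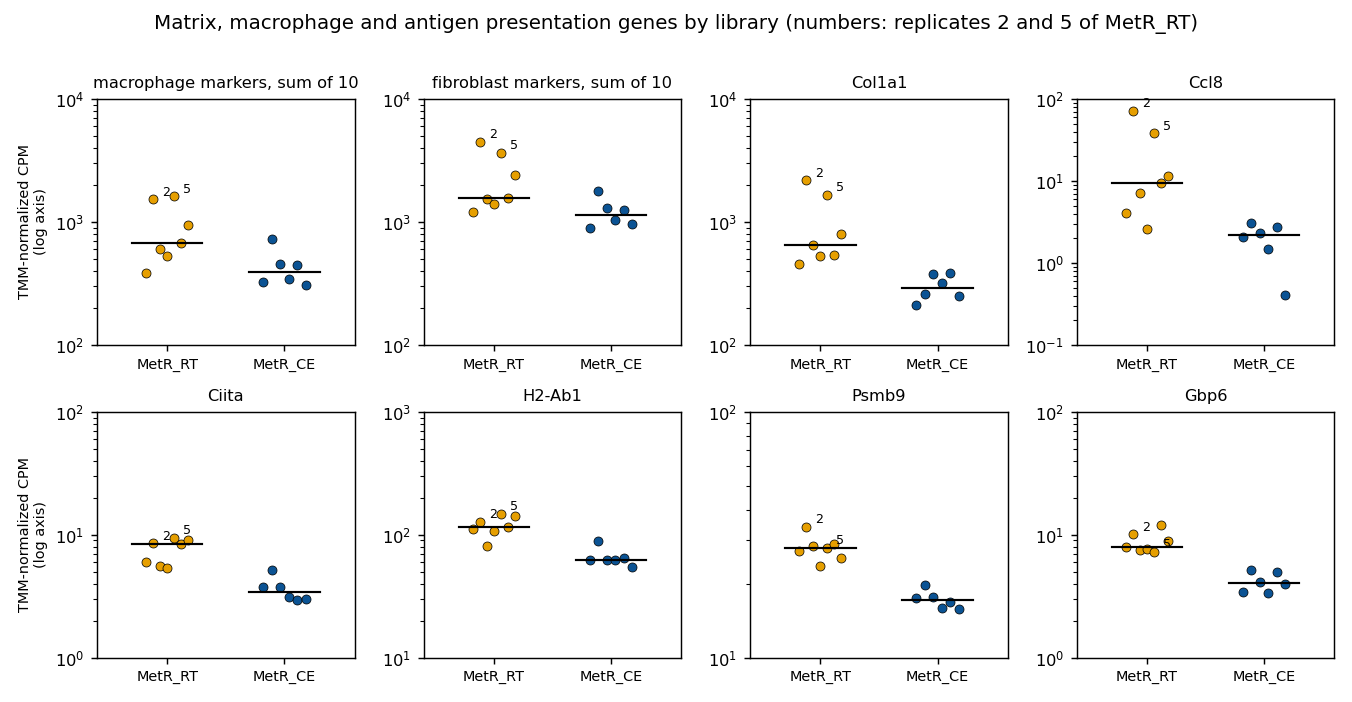
Summed CPM of macrophage and fibroblast markers and CPM of 6 genes (log axes) in 7 MetR_RT and 6 MetR_CE libraries, with black bars at the medians and MetR_RT 2 and 5 numbered. Both libraries lie at the top of the macrophage, fibroblast and Col1a1 panels, whereas Ciita, Psmb9 and Gbp6 separate the groups across all libraries.

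Interferon-stimulated genes all had a negative log2FC (18 of 18, median -0.60), but only Bst2, the virus tether tetherin, and Rtp4 passed (1.28% of all genes tested were downregulated). Bst2 lay at 39 to 64.4 CPM (median 46.4) in MetR_RT and 22.8 to 29.9 CPM (median 28.7) in MetR_CE (log2FC -0.79 ± 0.19, adjusted p = 0.017), without overlap, and Rtp4 had log2FC -0.87 ± 0.25, adjusted p = 0.0387, a call lost in 10 of 13 leave-outs. Gbp6, an interferon-γ-induced GTPase outside this list, lay at 7.29 to 12.1 CPM (median 7.9) in MetR_RT and 3.37 to 5.15 CPM (median 4.07) in MetR_CE (log2FC -1.07 ± 0.20, adjusted p = 0.00317), and its groups were apart. Cold on the control diet downregulated 15 of the 18, beside 9.94% of all genes tested, with a list median of -1.68. Of the remaining decreases, Arhgap9 (-1.06), a signalling regulator of blood cells, and Wdfy4 (-0.996), needed by dendritic cells to present antigen to CD8 T cells, are typical of immune cells. Dapk1, a calmodulin-dependent death kinase, lay at 87 to 121 CPM (median 102) in MetR_RT and 51.5 to 78.9 CPM (median 62.1) in MetR_CE (log2FC -0.70 ± 0.12, adjusted p = 0.00112), and Tmem35b (-0.70), Serf1 (-0.81) and Fam120c (-0.79) fell with small errors. Dapk1, Gbp6, Serf1, Tmem35b and Fam120c remained called without MetR_RT 2 and 5, and Bst2, Rtp4, Wdfy4 and Arhgap9 did not.

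The 2 cold steps share no library, and their values can be set side by side. Ctrl_CE against Ctrl_RT gave 4211 DEGs (15.9%), 1584 upregulated (5.99%) and 2627 downregulated (9.94%). The median standard error of the log2FC was 0.117 over genes of at least 1 CPM, against 0.121 in MetR. The fit estimated 1 spread per gene over all groups. Near-equal errors therefore follow from the group sizes and do not compare the scatter of libraries in the 2 steps. Of the 159 genes upregulated in MetR, 98 were upregulated on the control diet, 2 were downregulated and 59 were not called. Of the 339 downregulated, 232 were downregulated there, 2 were upregulated and 105 were not called. The genes upregulated on the control diet had a median log2FC of 0.97 there and 0.23 in MetR, and those downregulated -1.09 and -0.50. Selection on the control values favours larger values there.

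The difference between the 2 cold steps was tested as the interaction, which gave 435 genes (1.65%), 135 positive (0.511%) and 300 negative (1.14%). A negative value means a smaller rise or a larger fall in MetR, or a rise on the control diet beside a fall in MetR. Of the 300, 53 were not upregulated on the control diet, and 12 were called in MetR (2 upregulated and 10 downregulated). Their median log2FC was 0.89 on the control diet and -0.05 in MetR. Of the 135, 102 fell on the control diet and 8 rose in MetR, with medians of -0.96 and 0.20. Both sets were selected on the difference between the diets, so the gaps between these medians follow from the selection. The number of interaction genes was 169 without MetR_CE 4, 190 without MetR_CE 5 and 231 without MetR_RT 3, and it lay between that and 300 without MetR_RT 4 or 6, MetR_CE 2 or 3, Ctrl_RT 1, 3 or 6, or Ctrl_CE 1, 2 or 3. The number was 901 without Ctrl_RT 5, 872 without Ctrl_CE 7, 731 without MetR_CE 1, 689 without MetR_RT 5, 681 without MetR_RT 7, and 915 without MetR_RT 2 and 5 together. The interaction genes named below kept their calls without any 1 of the 27 libraries, except Gpr3.

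Among the most precise positive interactions, Zim1, an imprinted zinc finger gene, fell on the control diet and rose in MetR (log2FC -0.88 and 1.45, interaction 2.33 ± 0.42, adjusted p = 0.00777). It lay at 1.46 to 3.44 CPM (median 2.5) in Ctrl_RT and 0.731 to 2.88 CPM (median 1.27) in Ctrl_CE, and at 1.56 to 3.84 CPM (median 2.26) in MetR_RT and 2.74 to 11.7 CPM (median 6.32) in MetR_CE. Vnn1, a pantetheinase that releases pantothenate and cysteamine, had log2FC of -2.20 and 0.87 (interaction 3.07 ± 0.57, adjusted p = 0.00854). Il4ra, the receptor chain for interleukin 4, lay at 60.8 to 107 CPM (median 68.8) in Ctrl_RT and 28 to 47.9 CPM (median 33.5) in Ctrl_CE, and at 23.3 to 38.5 CPM (median 32.7) in MetR_RT and 25.9 to 34 CPM (median 31.9) in MetR_CE (interaction 1.16 ± 0.19, adjusted p = 0.00528). Gnal, a stimulatory G protein subunit (log2FC -2.50 and 0.02), St6galnac5, a sialyltransferase (-1.50 and -0.03), and Gulp1, an engulfment adaptor (-0.96 and 0.37), had the same order.

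Among the negative interactions, Gypc, a membrane skeleton protein, had the smallest p. It lay at 37.8 to 53.9 CPM (median 47.4) in Ctrl_RT and 61.7 to 76.1 CPM (median 63.2) in Ctrl_CE, and at 53.9 to 79.9 CPM (median 62.7) in MetR_RT and 41.9 to 54.7 CPM (median 47) in MetR_CE (interaction -0.91 ± 0.12, adjusted p = 0.000762). Kmt5a, which monomethylates histone H4, had log2FC of 0.65 on the control diet and -0.29 in MetR (interaction -0.94 ± 0.15, adjusted p = 0.0046). Ppp1r1a, an inhibitor of protein phosphatase 1 (0.79 and -0.18), Rab3a, a GTPase of vesicle release (1.15 and 0.10), and Odf3l1 (0.97 and -0.42), differed alike. Of the genes described above, Gdf15 and Gpr3 passed the interaction test as well, Gpr3 with a larger rise on the control diet (log2FC 4.35, interaction -2.55 ± 0.71, adjusted p = 0.0459), a call that was lost in 21 of 27 leave-outs.

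**Figure D5:**
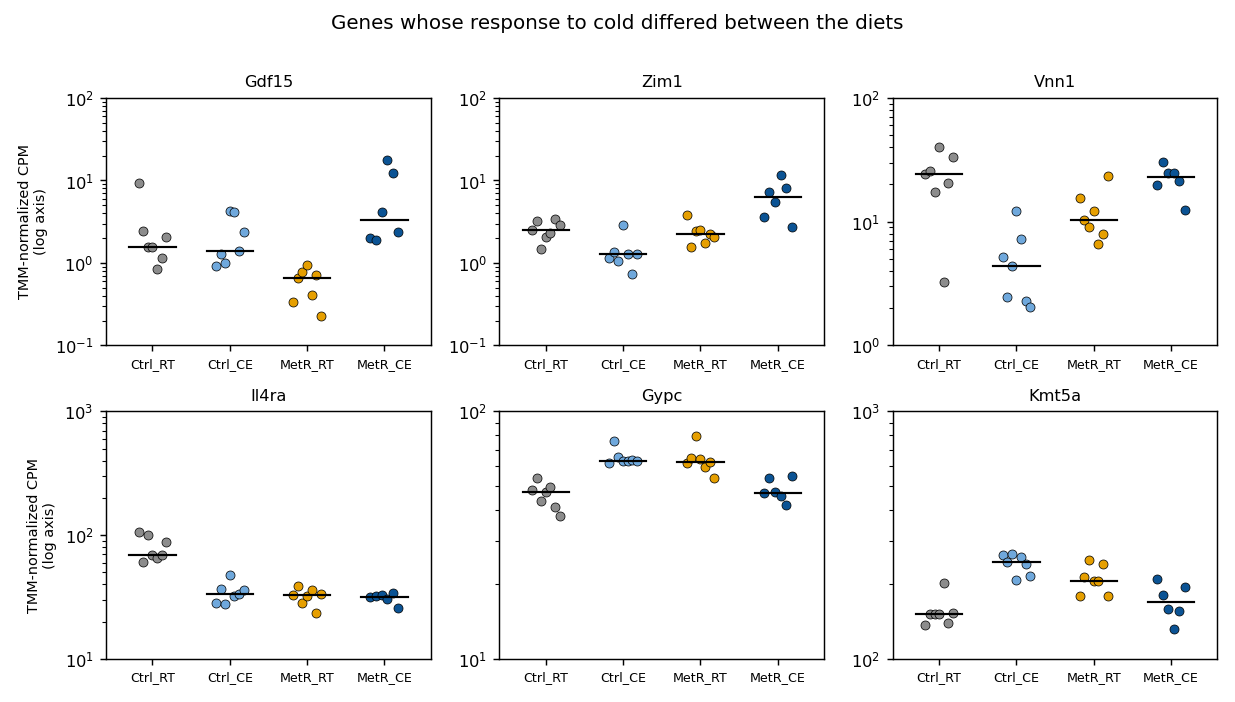
TMM-normalized CPM (log axis) of 6 genes with a called interaction in the 4 iWAT groups (n = 7, and 6 for MetR_CE), with black bars at the medians. Gdf15 is higher in MetR_CE than in MetR_RT without a like difference on the control diet, Zim1, Vnn1 and Il4ra have a negative log2FC on the control diet (-0.88, -2.20 and -1.20), and Gypc and Kmt5a a positive one (0.51 and 0.65) there and a negative one in MetR.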

How the data were processed

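PolyA-selected RNA of iWAT was sequenced as paired 50-base reads. The authors deposited raw whole-number counts per Ensembl gene (mm10), without normalization. Their processing notes name STAR 2.7.9a, featureCounts 2.0.3 and Salmon 1.9.0, and the name of the deposited table refers to Salmon. Its whole numbers may then be rounded estimates, which the sources used here do not state, and reads of near-identical genes may have been split by estimation. Symbols were matched for 51948 of 56884 identifiers. Columns were mapped to samples by library number, with 0 left over.

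Genes with at least 10 counts in the 27 iWAT libraries (26428) were tested with edgeR 4.0.16 in R 4.3.3 (TMM, quasi-likelihood, 1 coefficient per group). DEGs had a Benjamini-Hochberg adjusted p under 0.05 and a log2 fold change of at least 0.585 in size, the study's thresholds. Errors after ± are standard errors, computed as the log2FC divided by the square root of F. n is 7, and 6 for MetR_CE. Marker sums were compared by exact permutation over libraries. On simulated counts with 200 changed genes among 25854, MetR_CE against MetR_RT recovered 78% of 100 changed 2-fold and 98% of 100 changed 3-fold, with 6 false calls, and the interaction 49% and 95%, with 14. Whether these shares and false calls hold for the real libraries was not tested. There, leaving out 1 library gave 178 to 721 DEGs in MetR_CE against MetR_RT. Replicate libraries differed by more than counting noise.

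Named genes were the 12 DEGs a direction with the largest change among those without overlap and with at least 5 CPM, the 8 a direction with the smallest p, 6 interaction genes a direction, up to 3 DEGs a list and direction, and Ucp1, 69 in all. The groups, the genes and the lists were chosen with earlier results of these data known. Alternatives were RLE factors, filterByExpr, no filter, glmTreat, robust dispersions, a replicate block, only the compared libraries, DESeq2 1.42.0 with and without apeglm 1.24.0, and each library left out. Promoter windows are RefSeq's and were found for 48 of the named genes. A few of the named genes are not reported here.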

Additional observations from a re-analysis of the deposited data

Results flagged for a closer look

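In 6 of 156 groups of 6 or 7 libraries, 1 library lay far from the others by Dixon's criterion on log2 levels, which chance gives in about 1 of 20 groups. Fgf21 was at 0.174 CPM in MetR_RT 5, with 0.713 to 1.85 CPM in the other MetR_RT libraries, and at 2.39 CPM in MetR_CE 2, with 5.97 to 9.11 CPM in the others. Both are the lowest values of their group. Gulp1 was at 13.1 CPM in MetR_CE 6 (18.9 to 22.1 CPM in the others), Fn1 at 395.2 CPM in MetR_CE 2 (158 to 212 CPM), and Ccl8 at 0.403 CPM in MetR_CE 6 (1.48 to 3.09 CPM). Skeletal muscle markers summed to 16.7 CPM in MetR_CE 1 and to 647 to 4912 CPM in the other MetR_CE libraries. The calls of Fgf21 and Ccl8 held without each of the libraries named.

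The response to cold differed between the diets, by the interaction test, for 13 of the named genes. The log2 interaction was positive for Gdf15 (3.82), Vnn1 (3.07), Gnal (2.51), Zim1 (2.33), St6galnac5 (1.47), Gulp1 (1.33) and Il4ra (1.16), for which the change in MetR was above that on the control diet. It was negative for Gpr3 (-2.55), Odf3l1 (-1.39), Rab3a (-1.05), Ppp1r1a (-0.97), Kmt5a (-0.94) and Gypc (-0.91), and the call of Gpr3 was lost in 21 of 27 leave-outs.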

How the results depend on the processing

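The direction held for all 56 named DEGs under each alternative, but counts moved with the libraries and the tool, and the cause was not tested. Of these 56, 16 lost their call in DESeq2 with apeglm and 54 with glmTreat. Robust dispersions lost 6, the replicate block 5, no filter 4 and only the 13 compared libraries 2. Leaving out 1 library gave 178 to 721 DEGs (72 to 209 upregulated, 106 to 512 downregulated), 21 to 51 list genes called (39 with all libraries), and 169 to 901 interaction genes (48 to 309 positive, 121 to 633 negative). Leaving out MetR_RT 2 and 5 together, an alternative chosen after seeing the data, gave 106 DEGs (54 and 52), 18 list genes and 915 interaction genes (305 and 610), and 32 of the 56 named DEGs were called. DESeq2 without shrinkage gave 950 DEGs with 730 downregulated, 61 list genes and 928 interaction genes (250 and 678). With apeglm there were 133 upregulated and 156 downregulated DEGs (2.9e+02 in all), 51 positive interaction genes, and the interaction of Gulp1 shrank to -4.584e-06. filterByExpr gave 511 downregulated DEGs and 665 interaction genes, 479 of them negative. An adjusted p alone gave 1431 genes (836 higher and 595 lower). glmTreat, which tests for a change above 1.5-fold, gave 4 DEGs, all upregulated (Nr4a3, Fgf21, Pigr and Kcnh6), 0 downregulated, 2 list genes and 0 interaction genes, with 0 positive and 0 negative. In the test of the interaction by edgeR without that margin there were 435. RLE factors (504 DEGs), robust dispersions (461), no filter (388) and only the 13 compared libraries (580) stayed within 1.5 times. Replicate numbers did not pair the samples (correlations of same-numbered deviations -0.02 to 0.64, with only number 6 closest to itself). With the replicate block there were 377 DEGs, and 229 positive and 358 negative interaction genes. Epithelium markers turned from a log2 difference of -0.19 to 0.0145 when log2 values were averaged, with no call in either, and adipocyte markers from 0.11 to 0.31, which then passed.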
